A study of Mus musculus with 16 samples.

Results

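Neutral lipids are stored in lipid droplets, and the 10 genes described here encode the proteins that coat these droplets, build their triglycerides and cholesteryl esters, and break them down again. The set comprised Plin2, Plin3, Hilpda, Dgat1, Dgat2, Lpin1, Pnpla2, Lipe, Mgll and Soat1, matched by symbol in the deposited gene table. These were 10 of 55335 annotated genes, and all 10 were among the 16475 genes with enough reads to be tested. Plin3, which encodes a perilipin that coats nascent droplets, was the single member of the set to reach the threshold used for a differentially expressed gene (DEG, unadjusted p of 0.01 or less). It was lower in inhibitor-infused 3xTg hippocampi, at 0.702 of its level in vehicle-infused 3xTg hippocampi and 0.747 of that in vehicle-infused WT hippocampi. No member of the set passed a Benjamini-Hochberg adjusted p of 0.05 in any comparison with the main edgeR test.

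The data were bulk RNA-seq read counts of dissected hippocampi from 16 female mice aged 10 months, with 4 mice in each of 4 groups. The 3xTg mice express mutant human APPSwe and tauP301L in neurons from transgenes with the Thy1.2 element of the mouse, on a knock-in background. Strain controls of mixed C57BL/6J and 129S1 descent, and not littermates, served as WT. All mice carried a brain cannula and an osmotic pump for 28 days. The pumps of WT-D and 3xTg-D delivered vehicle (0.8% DMSO in artificial cerebrospinal fluid) into the ventricle. Those of WT-S and 3xTg-S delivered 80 µM of an inhibitor of stearoyl-CoA desaturase (SCD), the enzyme that makes monounsaturated fatty acids, with the same amount of DMSO. The treatment labels name the inhibitor as Cayman 10566 (CAY10566), whereas the protocol text shared by all samples names a product of another supplier. The comparisons ask whether genotype, the inhibitor or both move the genes that store and release fatty acids.

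Cells esterify surplus fatty acids to glycerol or cholesterol and bud the product from the endoplasmic reticulum as droplets covered by perilipins. Lipolysis removes the fatty acids again one at a time, by the sequential action of adipose triglyceride lipase, hormone-sensitive lipase and monoacylglycerol lipase. In the brain, droplets are found mainly in glia and ependymal cells, and monoacylglycerol lipase is also the main enzyme that degrades the endocannabinoid 2-arachidonoylglycerol.

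Libraries held 15413385 to 23590149 reads assigned to genes, and between 7.82% and 15.1% of uniquely mapped reads fell outside annotated genes. Thy1, whose element drives the transgenes, was at 517 to 625 counts per 1000000 reads (CPM) in the 8 WT mice and at 1566 to 2141 CPM in the 8 3xTg mice, so the genotype labels were separated in every mouse. All 7 neuronal markers were counted in every mouse, at a summed 8516 to 10265 CPM. The 4 adipocyte markers (Lep, Adipoq, Cidec and Plin1) summed to only 0.108 to 0.584 CPM. Choroid plexus markers were uneven, with summed levels of 235 to 1382 CPM in WT-D and 182 to 672 CPM in WT-S. They were at 197 to 255 CPM in 3xTg-D and 167 to 223 CPM in 3xTg-S. The highest values were those of WT-D mouse 4 (1382 CPM) and WT-S mouse 1 (672 CPM). These sums rested unevenly on the choroid plexus markers. The smallest counts of single markers were 2124 reads for Enpp2 and 381 for Kl, but 14 for Ttr and 0 for Folr1, Kcnj13 and Slc4a5.

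The promoters of Plin3 and of Plin2, the other perilipin of the set, are shown because one of these related genes passed the threshold and the other did not. Both are the 250 bases before the RefSeq transcription start on GRCm38.p6, on the minus strand and written 5′ to 3′. The Plin3 window is chr17:56290512-56290761, and the Plin2 window is chr4:86670060-86670309. Capitals mark matches, on either strand, to the GC box (GGGCGG), the CCAAT box (CCAAT) or the hypoxia core (ACGTG or GCGTG).
Plin3: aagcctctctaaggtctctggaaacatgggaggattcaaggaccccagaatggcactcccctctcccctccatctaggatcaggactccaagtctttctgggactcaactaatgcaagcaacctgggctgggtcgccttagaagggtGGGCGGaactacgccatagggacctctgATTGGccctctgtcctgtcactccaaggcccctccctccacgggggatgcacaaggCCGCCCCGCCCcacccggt
Plin2: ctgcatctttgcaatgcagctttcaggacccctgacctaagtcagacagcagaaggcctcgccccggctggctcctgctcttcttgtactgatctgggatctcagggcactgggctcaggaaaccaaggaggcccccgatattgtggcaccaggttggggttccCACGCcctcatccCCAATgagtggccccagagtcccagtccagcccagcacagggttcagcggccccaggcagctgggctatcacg
The Plin3 window held 3 GC boxes, a sequence found in 32.7% of 32851 mouse promoter windows of this length, and 1 CCAAT box, found in 33.8%. The Plin2 window held no GC box, 1 CCAAT box and 1 match to GCGTG, found in 28.2% of windows. These matches describe letters only. The GC content was 60.0% in the Plin3 window and 61.6% in the Plin2 window, against a median of 52.4% over all windows. Promoter sequences were found for 8 of the 10 genes.

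Per kilobase of exon, the 10 genes spanned a wide range of levels in the hippocampus. Mgll, encoding monoacylglycerol lipase, was the highest, with a median over the 16 mice of 33.7 CPM per kb and a range of 28.2 to 43.5. Dgat2, one of the enzymes that add the last acyl chain of a triglyceride, followed at a median of 15.8 CPM per kb. Both stood clear of the next gene in every mouse. A middle group followed in the order Plin3 (median 5.47 CPM per kb), Soat1 (4.71), Pnpla2 (3.96), Dgat1 (3.31), Hilpda (3.08) and Lpin1 (2.89), in which the ranges of each pair of neighbours overlapped. Plin2 (median 1.23 CPM per kb) and Lipe (0.921) were the lowest, and their ranges lay below that of Lpin1. Plin2 was above Lipe in 16 of 16 mice although the ranges of these last genes overlapped, whereas Hilpda was above Lpin1 in only 8 of 16. The whole range of Plin3 over the mice was 2.05-fold, which was the widest of the 10 genes, and that of Lpin1 was 1.25-fold, the narrowest.

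**Figure D1:**
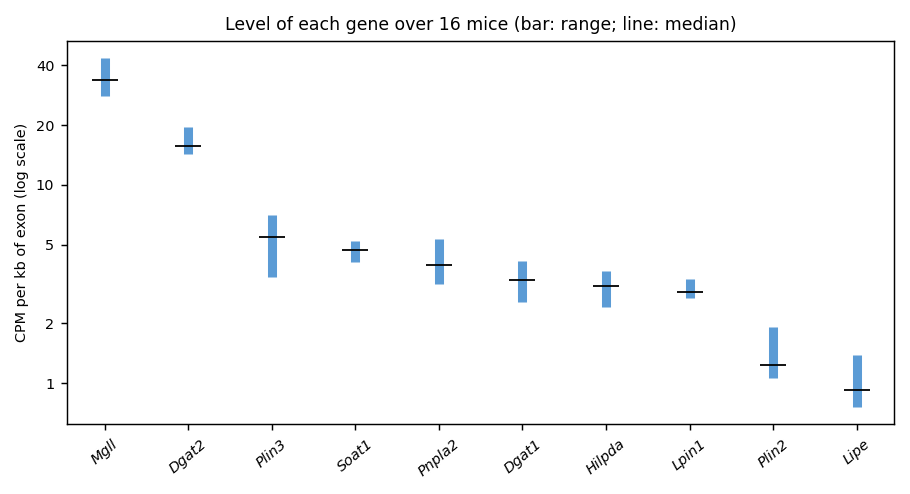
Level of each gene in CPM per kilobase of exon (log axis) over the 16 mice, ordered by the median; the blue bar is the range from lowest to highest mouse and the black line the median. Mgll (33.7) and Dgat2 (15.8) lie above the other 8 genes, and Plin2 (1.23) and Lipe (0.921) below.

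Plin3 (ENSMUSG00000024197.10, chr17:56277476-56292873, minus strand) encodes perilipin 3, a widely expressed coat protein that moves from the cytosol onto new droplets. In WT-D, the 4 mice were at 22.5, 20.8, 20.6 and 22.0 CPM (mean 21.5 ± 0.928, SD, n = 4). In 3xTg-D they were at 23.3, 26.7, 22.4 and 19.95 CPM (23.1 ± 2.80). WT-S mice were at 23.5, 22.2, 18.3 and 17.0 CPM (20.3 ± 3.08), and 3xTg-S mice at 16.9, 19.5, 15.5 and 13.0 CPM (16.2 ± 2.69). Every 3xTg-S mouse was below every mouse of both vehicle groups, while WT-S overlapped with all 3 other groups. The underlying read counts were between 241 and 637.

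Under the inhibitor, Plin3 fell in 3xTg mice by 0.51 on the log2 scale (3xTg-D vs 3xTg-S, SE 0.13, 95% interval -0.80 to -0.22, edgeR adjusted p = 0.722). It was thus 1 of the 10 genes below the threshold in a comparison in which 0.625% of all tested genes were lower DEGs, 0.904% were DEGs in either direction and 1.76% were lower without overlap between the groups. In WT mice the difference between WT-D and WT-S was -0.08 (SE 0.11, adjusted p = 1.00). The test of the difference between these responses, the genotype by inhibitor interaction, gave -0.43 (SE 0.17, 95% interval -0.79 to -0.06, adjusted p = 0.788), which did not reach the threshold. It reached it with the replicate number as a block (-0.42, SE 0.12, adjusted p = 0.240). The block made 3.79% of all tested genes DEGs for the interaction, against 0.595% without it. After removal of group means, same-number mice correlated over all tested genes by a mean of 0.217 in WT and 0.213 in 3xTg. The interaction did not reach the threshold with the share of reads outside genes as a covariate (-0.25, SE 0.13, adjusted p = 1.00). Nor did it with the block and that share together (-0.27, SE 0.13, adjusted p = 0.933), a model chosen after seeing the data. Whether the inhibitor response of Plin3 differs between genotypes thus depended on the model. Averaged over both genotypes, Plin3 fell by 0.30 under the inhibitor (SE 0.09, adjusted p = 0.999), in a comparison with 0.68% of genes as lower DEGs and 0.88% as DEGs.

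Plin3 was also lower in 3xTg-S than in WT-D, by -0.42 on the log2 scale (SE 0.11, 95% interval -0.68 to -0.17, adjusted p = 0.114), where 3.43% of genes were lower DEGs, 5.69% were DEGs in either direction and 4.42% were lower without overlap. This comparison has its 3xTg-S mice in common with the one above. Between genotypes, Plin3 was not a DEG under vehicle (WT-D vs 3xTg-D, 0.11, SE 0.09, adjusted p = 0.669) or under the inhibitor (WT-S vs 3xTg-S, -0.33, SE 0.14, adjusted p = 0.436). In the scheme of the study, a gene that is not a DEG between WT-D and 3xTg-D but is one between WT-D and 3xTg-S is classed as newly changed, and Plin3 met both conditions at p of 0.01 or less.

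Several measures of the libraries were set beside Plin3, and their association with it was not tested. The mouse with the lowest Plin3 level, 3xTg-S mouse 4 (13.0 CPM), had the largest share of uniquely mapped reads outside genes (15.1%), although the 3xTg-S mouse with the smallest share (mouse 2, 7.82%) was at 19.5 CPM and also below all vehicle-infused mice. With that share as a covariate, Plin3 remained a DEG between 3xTg-D and 3xTg-S (-0.39, adjusted p = 0.762) and between WT-D and 3xTg-S, where it then also passed adjustment (-0.40, SE 0.08, adjusted p = 0.0216). Of 7 oligodendrocyte markers, 3 were lower DEGs between 3xTg-D and 3xTg-S (Mag -0.42, Cnp -0.44 and Cldn11 -0.35), against 0.625% of all tested genes. None passed after adjustment, and all 7 log2 differences were below 0. Their summed level was 5675 to 6743 CPM in 3xTg-D, 4329 to 6763 in 3xTg-S, 4377 to 5185 in WT-D and 3448 to 5318 in WT-S. Of 6 ependymal markers, 3 were lower DEGs in the same comparison (none after adjustment), against the same 0.625% of all tested genes. The summed level of the ependymal markers was 44.8 to 52.1 CPM in 3xTg-D, 27.8 to 42.6 in 3xTg-S, 42.7 to 51.7 in WT-D and 33.8 to 48.3 in WT-S. The 7 astrocyte and 8 microglial markers held no DEG, but none of the log2 differences was above 0, with medians of -0.22 and -0.41. The 5 erythroid markers held no DEG either, and all 5 log2 differences were above 0 (0.68 to 1.10), with summed levels of 30.5 to 75.5 CPM in 3xTg-D, 31.3 to 127 in 3xTg-S, 15.7 to 41.4 in WT-D and 30.2 to 43.6 in WT-S. Between WT-D and 3xTg-S, 4 of 6 ependymal (2 after adjustment), 2 of 7 oligodendrocyte and 2 of 6 meningeal markers were lower DEGs and 3 of 5 erythroid markers were higher DEGs (none after adjustment), against 5.69% of all tested genes in either direction. No oligodendrocyte, ependymal, astrocyte, microglial, erythroid or meningeal marker was at 0 in any mouse. The part of these cell types in the Plin3 difference was not tested, and in bulk tissue fewer cells of a type cannot be told apart from less RNA per cell.

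With the choroid plexus marker score as a covariate, Plin3 was no longer a DEG between 3xTg-D and 3xTg-S (-0.37, adjusted p = 1.00) or between WT-D and 3xTg-S (-0.39, adjusted p = 0.386). With any 1 mouse removed, it stayed a DEG between 3xTg-D and 3xTg-S in 8 of 8 fits, but between WT-D and 3xTg-S in 5 of 8. It was not a DEG without WT-D mouse 1 (-0.40), without WT-D mouse 4 (-0.41) or without 3xTg-S mouse 3 (-0.40).

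**Figure D2:**
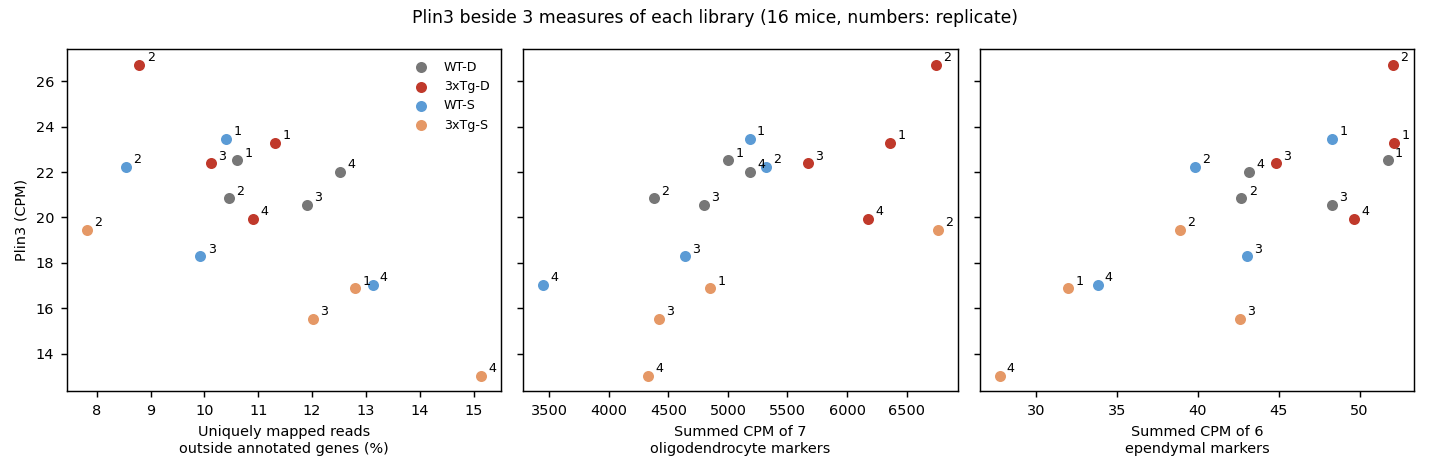
Plin3 level in CPM (y axis) of each of the 16 mice against the percentage of uniquely mapped reads outside genes, the summed CPM of 7 oligodendrocyte markers and the summed CPM of 6 ependymal markers (x axes); colours are groups and numbers are replicates. The 4 3xTg-S mice lie at 13.0 to 19.5 CPM, below the 8 vehicle-infused mice, and 3xTg-S mouse 4 is lowest in Plin3 and highest in reads outside genes.

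The genes whose log2 CPM followed that of Plin3 most closely over the 16 mice were Acads (Pearson r = 0.939), which encodes the short-chain acyl-CoA dehydrogenase of mitochondrial beta-oxidation, Ascc1 (r = 0.916) and H3f3b (r = 0.913), which encodes histone H3.3. These coefficients describe values from the same libraries, which share their depth and cell composition, and 0.486% of the tested genes had r above 0.8 with Plin3.

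Plin2, the perilipin most often used to mark droplets, was not a DEG in any comparison. Its lowest and highest levels were 3.78 and 5.28 CPM in WT-D, 3.82 and 6.71 in 3xTg-D, 3.73 and 5.26 in WT-S, and 3.94 and 5.49 in 3xTg-S, so all groups overlapped. The log2 difference was 0.23 between WT-D and 3xTg-D (95% interval -0.18 to 0.63, adjusted p = 0.658) and -0.27 between 3xTg-D and 3xTg-S (95% interval -0.68 to 0.14, adjusted p = 0.732). Each interval includes the Plin3 value of the same comparison, so a Plin2 change of that size was not excluded. Both Plin2 values rested in part on single mice. The first fell to 0.08 without 3xTg-D mouse 2, to 0.14 without WT-D mouse 4 and rose to 0.35 without 3xTg-D mouse 4, and the second lay at -0.15 and -0.41 without 3xTg-D mice 2 and 4. The highest mouse, 3xTg-D mouse 2 at 6.71 CPM, was also the highest of all 16 for Plin3, Pnpla2, Lipe and Mgll. Hilpda, a small droplet protein that inhibits adipose triglyceride lipase and is induced by hypoxia, was at 3.17 ± 0.296 CPM in WT-D, 3.51 ± 0.622 in WT-S, 3.52 ± 0.204 in 3xTg-D and 3.00 ± 0.497 in 3xTg-S. Its mean was higher in 3xTg than WT under vehicle and lower under the inhibitor, but the interaction of -0.39 (SE 0.21, adjusted p = 0.788) did not pass. Only 45 to 83 reads per mouse lay behind these Hilpda levels.

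**Figure D3:**
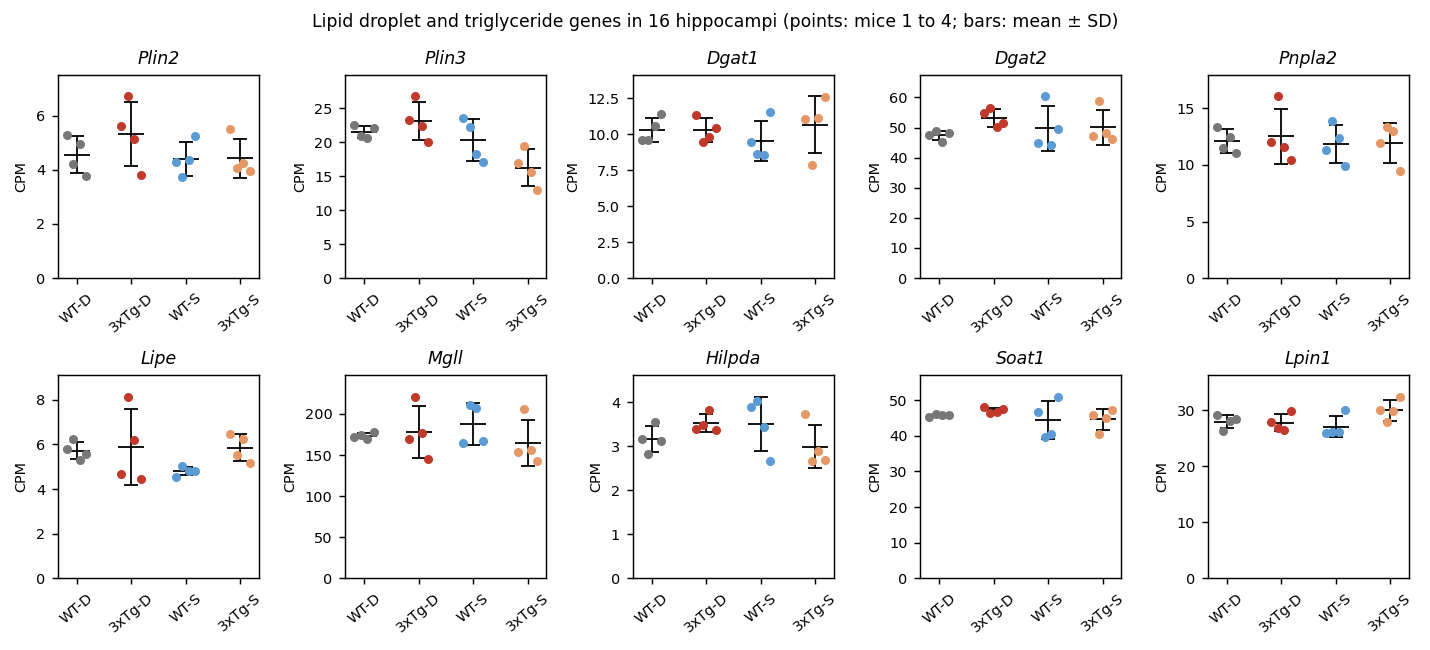
Level in CPM (y axes, from 0) of each of the 10 genes in the 4 mice of each group; points are mice in replicate order and the black bars are the mean ± SD. The 3xTg-S mice are below both vehicle groups for Plin3 (13.0 to 19.5 CPM), and the 3xTg-D mice (50.2 to 56.5 CPM) are above WT-D for Dgat2.

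Among the genes for triglyceride synthesis, Dgat2 came closest to the threshold. This diacylglycerol acyltransferase (ENSMUSG00000030747.5, chr7:99153658-99182719) was at 47.4, 49.0, 45.2 and 48.1 CPM in WT-D (mean 47.4 ± 1.59) and at 54.9, 56.5, 50.2 and 51.5 CPM in 3xTg-D (53.3 ± 2.92). All 3xTg-D mice were above all WT-D mice. The log2 difference of 0.17 (SE 0.06, 95% interval 0.05 to 0.29, adjusted p = 0.224) missed the threshold, and 4.39% of all tested genes were likewise higher without overlap between these groups. It passed without 3xTg-D mouse 3 (0.20, adjusted p = 0.232). Under the inhibitor, Dgat2 was at 44.9, 60.4, 44.1 and 49.4 CPM in WT-S and at 47.2, 58.7, 48.2 and 46.2 CPM in 3xTg-S. Mouse 2 was the highest in both groups, and the groups did not differ (log2 difference -0.00, 95% interval -0.27 to 0.26, adjusted p = 0.997). The interaction of -0.16 (SE 0.13, adjusted p = 0.788) did not pass, so a genotype difference specific to vehicle was not shown. Oligodendrocyte markers also separated the vehicle groups, with 3 of 7 higher DEGs in 3xTg-D, among them Mbp (0.49) and Mobp (0.39), against 2.44% of all tested genes. All 3 also passed an adjusted p of 0.05, against 1.85% of all tested genes in either direction. The summed levels of the 7 markers did not overlap, at 4377 to 5185 CPM in WT-D and 5675 to 6743 CPM in 3xTg-D. Of the other 4, Cldn11 (0.19), Cnp (0.13), Mag (0.02) and Mog (-0.09) overlapped between these groups. All 7 astrocyte markers also had log2 differences above 0, with a median of 0.19 and no DEG. The part of these markers in the Dgat2 difference was not tested.

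Dgat1, which encodes the other diacylglycerol acyltransferase, lay between 7.87 and 12.6 CPM over all mice, and its group means of 10.3 ± 0.852 in WT-D, 9.54 ± 1.40 in WT-S, 10.3 ± 0.830 in 3xTg-D and 10.7 ± 1.99 in 3xTg-S overlapped. Its lowest and highest mice were both 3xTg-S (mice 2 and 4). Lpin1 encodes a phosphatidate phosphatase that supplies diacylglycerol. It was at 28.0 ± 1.21 CPM in WT-D, 27.1 ± 1.94 in WT-S, 27.8 ± 1.51 in 3xTg-D and 30.0 ± 1.88 in 3xTg-S. The largest of its log2 differences in a pairwise comparison was 0.13 (WT-S vs 3xTg-S, 95% interval -0.04 to 0.31, adjusted p = 0.618). Lpin1 thus had narrow intervals in these data, whereas the intervals of Dgat1 reached from -0.26 to 0.36 for the inhibitor in 3xTg mice.

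The lipases of the stepwise pathway showed no DEG. Pnpla2, encoding adipose triglyceride lipase, which starts lipolysis, was at 12.1 ± 1.04 CPM in WT-D, 11.9 ± 1.69 in WT-S, 12.5 ± 2.46 in 3xTg-D and 11.9 ± 1.75 in 3xTg-S. Its log2 difference was -0.07 for the inhibitor in 3xTg mice (95% interval -0.41 to 0.27, adjusted p = 0.900) and 0.05 between the vehicle groups (adjusted p = 0.907). Lipe, encoding hormone-sensitive lipase, which cleaves diacylglycerol and cholesteryl esters, was at 5.79, 6.24, 5.30 and 5.57 CPM in WT-D and at 4.55, 5.03, 4.81 and 4.83 CPM in WT-S. It was at 6.47, 5.53, 6.23 and 5.18 CPM in 3xTg-S and at 4.67, 8.14, 6.21 and 4.47 CPM in 3xTg-D. The WT-S mice were all below the WT-D and 3xTg-S mice, but neither difference reached the threshold: -0.25 between WT-D and WT-S (SE 0.11, adjusted p = 1.00) and 0.27 between WT-S and 3xTg-S (SE 0.12, adjusted p = 0.477). Of all tested genes, 0.716% were likewise lower without overlap in WT-S than in WT-D, and 3.22% likewise higher without overlap in 3xTg-S than in WT-S. Of the 5886 exon bases of Lipe, 918 overlap the antisense gene 4732471J01Rik. Because the strand setting of the counting was not stated, how reads in these bases were assigned or left out was not known.

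Mgll, which completes lipolysis, was the most evenly expressed lipase in WT-D, at 172, 175, 170 and 178 CPM, and spread more widely in the other groups. It was at 169, 221, 177 and 145 CPM in 3xTg-D, at 165, 211, 207 and 167 CPM in WT-S, and at 153, 207, 156 and 143 CPM in 3xTg-S. In each of these 3 groups, mouse 2 was the highest. No comparison made Mgll a DEG, with -0.20 between WT-S and 3xTg-S (SE 0.13, adjusted p = 0.649) and -0.09 between WT-D and 3xTg-S (SE 0.10, adjusted p = 0.778). Without 3xTg-S mouse 2, both passed, at -0.34 (adjusted p = 0.157) and -0.22 (adjusted p = 0.0424), so that 1 library decided these calls. Mgll shares 167 exon bases with the antisense gene Gm26588.

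Soat1, encoding the acyltransferase that makes cholesteryl esters for storage, was at 45.8 ± 0.390 CPM in WT-D, 44.5 ± 5.36 in WT-S, 47.2 ± 0.729 in 3xTg-D and 44.7 ± 2.94 in 3xTg-S. The vehicle groups did not overlap, at 45.3 to 46.2 CPM in WT-D and 46.5 to 48.0 CPM in 3xTg-D. Of all tested genes, 4.39% were likewise higher without overlap in 3xTg-D. The log2 difference of Soat1 was only 0.04 (95% interval -0.05 to 0.14, adjusted p = 0.728). For the inhibitor in 3xTg mice it was -0.08 (95% interval -0.22 to 0.06, adjusted p = 0.750).

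**Figure D4:**
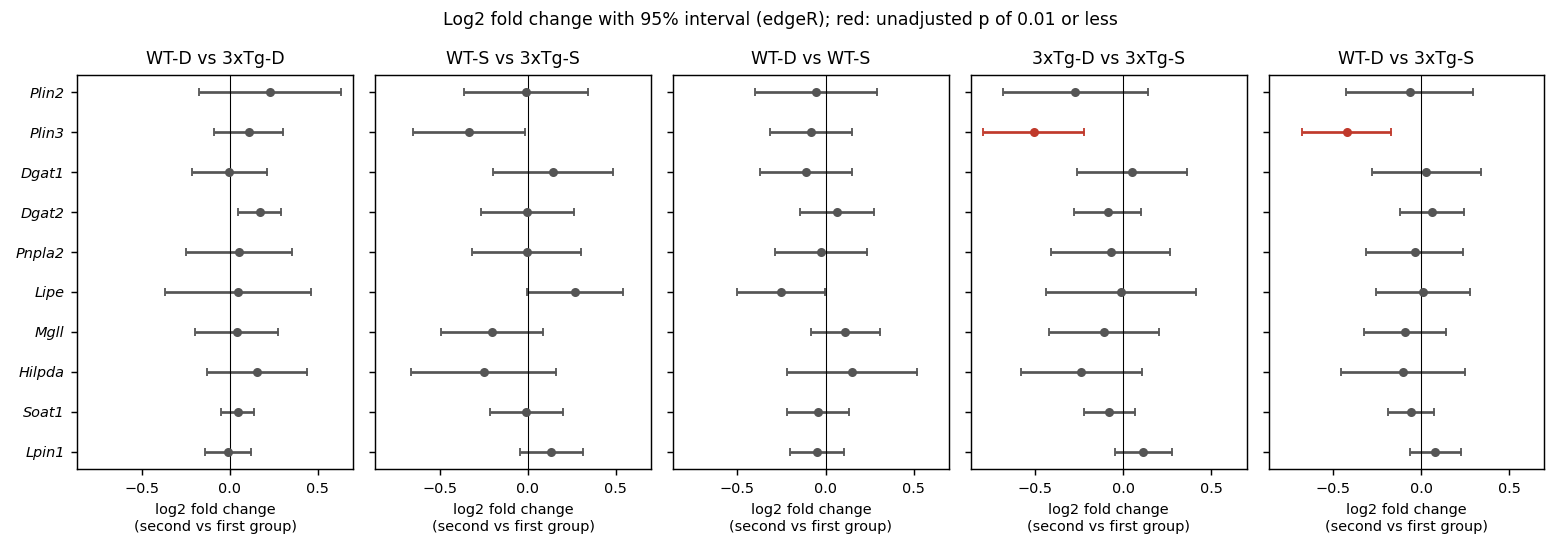
Log2 fold change of the second over the first named group (x axis) for the 10 genes in the 5 pairwise comparisons; bars are 95% intervals from edgeR and red marks an unadjusted p of 0.01 or less. Plin3 is the one gene in red, at -0.51 for 3xTg-D vs 3xTg-S and -0.42 for WT-D vs 3xTg-S.

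Counted over the whole set, 0 of 10 genes were DEGs between WT-D and 3xTg-D with edgeR, against 4.91% of all tested genes, and 1 of 10 (Dgat2) had an unadjusted p under 0.05, against 12.6%. Between WT-S and 3xTg-S, 0 of 10 were DEGs (4.26% of all genes) and 1 (Plin3) was under 0.05 (10.7%). Between WT-D and WT-S, 0 of 10 were DEGs (0.188% of all genes, or 0.698% with the mice paired by replicate number, which left the count at 0) and 1 (Lipe) was under 0.05 (2.25%). With that pairing, Lipe was no longer under 0.05 (edgeR unadjusted p = 0.0694). The interaction gave 0 of 10 (0.595%) and 1 under 0.05 (Plin3, 4.98%), and genotype averaged over both infusions gave 0 of 10 (7.93%) and 0 under 0.05 (15.7%). Where Plin3 was a DEG, it was also the one gene under 0.05, against 6.33% of all genes for 3xTg-D vs 3xTg-S, 13.1% for WT-D vs 3xTg-S and 4.68% for the inhibitor over both genotypes. After adjustment, 0 of 10 passed in all 8 comparisons, against 1.85% of all genes for WT-D vs 3xTg-D, 1.4% for WT-S vs 3xTg-S, 1.58% for WT-D vs 3xTg-S, 4.97% for genotype over both infusions and 0% for the other 4. The likelihood ratio test of DESeq2 also called 0 of 10 in the 5 comparisons without a DEG. The median log2 difference of the 10 genes was 0.05 for WT-D vs 3xTg-D and -0.08 for 3xTg-D vs 3xTg-S, against -4.27e-05 and 0.01 over all tested genes.

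The wider droplet pathway was read from 42 further genes, of which 32 could be tested and 10 (Plin1, Cidec, Fitm1, Hsd17b13, Gpat2, Mogat1, Mogat2, Ces1d, Aadac and Soat2) had too few reads. None passed an adjusted p of 0.05 with edgeR. DEGs numbered 2 for WT-S vs 3xTg-S (6.25% of 32, against 4.26% of all tested genes) and 3 for WT-D vs 3xTg-S (9.38% against 5.69%). They numbered 4 for genotype over both infusions (12.5% against 7.93%) and 2 for the inhibitor over both genotypes (6.25% against 0.88%). There was no DEG for WT-D vs 3xTg-D (4.91% of all genes), 3xTg-D vs 3xTg-S (0.904%), WT-D vs WT-S (0.188%) or the interaction (0.595%).

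Plin5, the perilipin that links droplets to mitochondria, was lower in 3xTg-S than in WT-D (-1.42, SE 0.33, adjusted p = 0.0679) and fell by 0.74 under the inhibitor averaged over both genotypes (adjusted p = 0.999). It was at 0.591, 0.720, 0.651 and 0.664 CPM in WT-D and at 0.262, 0.191, 0.385 and 0.162 CPM in 3xTg-S, with 3xTg-D (0.294 to 0.796) and WT-S (0.363 to 0.651) overlapping WT-D. All of these levels were low. Plin5 (chr17:56111601-56117596) and Plin4 (chr17:56100591-56109803) lie on the same chromosome as Plin3, but Plin4 was not a DEG in any comparison and had a log2 difference of 0.21 for 3xTg-D vs 3xTg-S (SE 0.42, adjusted p = 0.895).

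Lcat, which esterifies cholesterol in lipoproteins, was lower in 3xTg-S than in WT-S (-0.33, SE 0.09, adjusted p = 0.126) and than in WT-D (-0.29, SE 0.08, adjusted p = 0.123). Its 3xTg-S mice lay at 13.9 to 16.6 CPM, below all WT-D (16.9 to 18.9) and WT-S (17.7 to 20.3) mice. Of all tested genes, 4.42% were likewise lower without overlap in 3xTg-S than in WT-D. That share is not reported here for WT-S vs 3xTg-S. Ddhd1, a phospholipase of the lipase list, was higher in 3xTg-S than in WT-S (0.40, SE 0.12, adjusted p = 0.167), although these groups overlapped. Lpin2, a lipin like Lpin1, was higher in 3xTg-S than in WT-D (0.18, SE 0.06, adjusted p = 0.173). Averaged over both infusions, Agpat4 (-0.14, adjusted p = 0.0878), Gpd1 (-0.21, adjusted p = 0.116) and Lcat (-0.21, adjusted p = 0.120) were lower in 3xTg mice and Ddhd1 was higher (0.24, adjusted p = 0.115). Averaged over both genotypes, Lpin2 was higher under the inhibitor (0.13, adjusted p = 0.999).

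Genes that respond to the same signals as members of the set were also counted. Of 14 target genes of the peroxisome proliferator-activated receptors (PPAR), which respond to fatty acids, 3 were higher in 3xTg-D than in WT-D, against 2.44% of all tested genes: Pdk4, a kinase that limits glucose oxidation (0.57, adjusted p = 0.0874), Angptl4, a lipoprotein lipase inhibitor (0.77, adjusted p = 0.154), and Cpt1a, which admits fatty acids to mitochondria (0.23, adjusted p = 0.177). Angptl4 was at 0.817 to 1.58 CPM in WT-D and 1.85 to 2.52 CPM in 3xTg-D. Pdk4 passed adjustment for genotype over both infusions (0.48, adjusted p = 0.0277). Between 3xTg-D and 3xTg-S, 0 of 14 were DEGs and 1 of 14 had a log2 difference above 0, with a median of -0.21 against 0.01 over all tested genes. Astrocyte markers moved the same way, with 7 of 7 log2 differences above 0 between WT-D and 3xTg-D (median 0.19, 3 with an unadjusted p under 0.05) and 0 of 7 above 0 between 3xTg-D and 3xTg-S (median -0.22). Their summed level was 6135 to 8255 CPM in 3xTg-D, 5914 to 7065 in 3xTg-S, 5810 to 6488 in WT-D and 5841 to 6906 in WT-S, and their part in the PPAR target values was not tested. Of 15 hypoxia-responsive genes, Bnip3 was lower in 3xTg-S than in WT-S (-0.42, adjusted p = 0.0721) and than in WT-D (-0.34, adjusted p = 0.0668), and P4ha1 was higher in 3xTg-S than in WT-D (0.20, adjusted p = 0.148). The hypoxia-responsive DEGs were thus 1 of 15 for WT-S vs 3xTg-S, against 4.26% of all tested genes, and 2 of 15 for WT-D vs 3xTg-S, against 5.69%. Bnip3 passed adjustment for genotype over both infusions (-0.26, adjusted p = 0.0141), against 4.97% of all tested genes. Of 13 glucocorticoid-responsive genes, Txnip was higher in 3xTg-D than in WT-D (0.56, adjusted p = 0.181) and lower in 3xTg-S than in 3xTg-D (-0.60, adjusted p = 0.722). It was the 1 DEG of the 13 in each comparison, against 4.91% and 0.904% of all tested genes.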

How the data were processed

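Hippocampal RNA of 16 mice was sequenced by the authors as single-end libraries with unique molecular identifiers. The deposited values are raw read counts per gene, which the authors made by trimming with Trimmomatic 0.35 and aligning with STAR 2.5.1b to GRCm38 (Gencode M23). Use of the identifiers and the strand setting were not given in the sources used here. The 4 summary lines of the table (24.0% to 27.8% of reads) were left out of library sizes.

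Genes were kept by filterByExpr (at least 10 counts, 15 in total) and tested with edgeR 4.0.16 (quasi-likelihood, two-sided, TMM) in R 4.3.3, pairwise in the mice of the 2 groups and, for interaction and averaged effects, in all 16. DEGs had p of 0.01 or less, the threshold of the study, and adjusted p-values are Benjamini-Hochberg over all 16475 genes. The CPM printed use TMM factors of all 16 mice. Lengths and overlaps come from Gencode M21 on the same build, in which the coordinates of Lpin1 differ from those in the table. Promoters come from RefSeq (GRCm38.p6). Scripts were tested on simulated data.

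All 10 genes were named, with those of 4 wider lists at p of 0.01 or less and at most 3 of each signal list. For Plin3, the 3 genes most correlated with it were named. Members and lists were chosen with earlier results of these data known. Replicate numbers were taken to pair 2 groups where every same-number correlation of gene deviations from the group mean was over 0.1. This held for WT-D vs WT-S alone (0.114, 0.205, 0.209 and 0.340, mean 0.217). The mean was similar for WT-S vs 3xTg-S (0.241) and 3xTg-D vs 3xTg-S (0.213), where some pairs fell below 0.1. It was 0.176 for WT-D vs 3xTg-S and 0.0414 for WT-D vs 3xTg-D. No 2 replicates agreed within sampling noise. Alternatives were DESeq2 1.42.0 with median-ratio or iterated (DEGES) size factors, other filters and scaling, 1 fit of all mice, a replicate block, covariates, an adjusted threshold and leaving out each mouse. Some items are not reported here.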

Additional observations from a re-analysis of the deposited data

Results flagged for a closer look

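Of 40 combinations of gene and group, 2 had a mouse that stood apart from the other 3 of its group by Dixon's criterion, which chance alone meets in about 1 of 20 groups. Dgat2 was at 58.7 CPM in 3xTg-S mouse 2, against 46.2 to 48.2 CPM in the other 3xTg-S mice. Lpin1 was at 30.0 CPM in WT-S mouse 4, against 26.01 to 26.2 CPM in the other WT-S mice.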

How the results depend on the processing

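Of 1680 recomputed log2 differences of the 10 genes, 1663 stayed on the same side of the threshold, 9 passed it newly and 8 no longer passed. None that passed changed sign, while 114 that passed under neither setting did. Plin3 between 3xTg-D and 3xTg-S ranged from -0.53 to -0.37 over the settings other than leaving out mice, with adjusted p-values from 0.0225 to 1.00. An adjusted threshold left 0 of 10 DEGs for 3xTg-D vs 3xTg-S, for WT-D vs 3xTg-S and for the inhibitor over both genotypes. The choroid plexus score as a covariate left 0 of 10 for 3xTg-D vs 3xTg-S and for WT-D vs 3xTg-S, and the cause was not tested. DESeq2 with DEGES size factors gave Plin3 an adjusted p of 0.0364 for WT-D vs 3xTg-S and 0.304 for 3xTg-D vs 3xTg-S.

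Every same-number correlation was over 0.1 only for WT-D vs WT-S (mean 0.217). The mean was similar for WT-S vs 3xTg-S (0.241) and 3xTg-D vs 3xTg-S (0.213), so whether replicate numbers pair those mice was not settled. With the replicate block, 1 of 10 genes became a DEG for WT-D vs 3xTg-D (Dgat2, 0.17, adjusted p = 0.163), for WT-S vs 3xTg-S (Plin3, -0.34, adjusted p = 0.0622) and for the interaction (Plin3, -0.42, adjusted p = 0.240, lost again at -0.27 with the share outside genes added), and the block changed no other call. With the block, DEGs were 5.73% of all tested genes for WT-D vs 3xTg-D, 8.13% for WT-S vs 3xTg-S and 3.79% for the interaction. Plin3 for 3xTg-D vs 3xTg-S had an adjusted p of 0.0225 with the block, where 6.88% of all tested genes were DEGs. Leaving out 1 mouse gave 0 to 2 DEGs among the 10 for WT-D vs 3xTg-S and for WT-S vs 3xTg-S, 0 to 1 for WT-D vs 3xTg-D and for the interaction, and unchanged counts for the other 4 comparisons. The 2 were Plin3 and Mgll, without 3xTg-S mouse 2. Over the same fits, DEGs among all tested genes numbered 665 to 1545 for WT-D vs 3xTg-S and 523 to 1001 for WT-S vs 3xTg-S. Both maxima were without that mouse. All-gene counts were 662 to 937 for WT-D vs 3xTg-D and 57 to 491 for the interaction. The Plin3 interaction passed without 3xTg-S mouse 2 (adjusted p = 0.309) or WT-S mouse 4 (adjusted p = 0.365), and Plin3 passed for WT-S vs 3xTg-S without 3xTg-S mouse 2 (adjusted p = 0.159).

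Counts over all tested genes moved by more than 1.5 times in several settings. For 3xTg-D vs 3xTg-S, 149 DEGs became 355 without a filter on low counts, 249 with all 16 mice in 1 fit, 1133 with the block, 56 with the choroid score, 0 after adjustment, and 68 to 755 on leaving out 1 mouse (3xTg-S mouse 4 and mouse 2). For WT-D vs WT-S, 31 became 180 without a filter, 48 in 1 fit of all mice, 115 with the block, 49 with the share of reads outside genes, 20 with at least 10 counts in every mouse, 0 after adjustment, and 22 to 518 (WT-S mouse 2 and mouse 4). For WT-S vs 3xTg-S, 702 became 1077 without a filter, 1339 with the block and 230 after adjustment. For WT-D vs 3xTg-S, 937 became 616 with the choroid score, 261 after adjustment and up to 1545 without 3xTg-S mouse 2. WT-D vs 3xTg-D fell from 809 to 305 after adjustment, and genotype over both infusions from 1307 to 818. The interaction went from 98 to 208 without a filter, 624 with the block, 0 after adjustment, and 57 to 491 without 3xTg-S mouse 4 and mouse 2. The inhibitor over both genotypes went from 145 to 299 without a filter, 291 with the block, 239 with the share outside genes, 275 with the block and that share together (a setting chosen after seeing the data), 0 after adjustment, and down to 88 without WT-D mouse 1. Depth limits Hilpda and Plin2 most.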
